A study of Mus musculus with 2 samples.

Results

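Neurons and glia keep their ion gradients with membrane pumps and exchangers, and 8 of those genes were examined here in RNA bound to tagged ribosomes: the sodium pump beta subunit genes Atp1b1 and Atp1b2, the calcium pump genes Atp2a2, Atp2b1 and Atp2b2, the sodium-calcium exchanger gene Slc8a1, and the chloride cotransporter genes Slc12a2 and Slc12a5. They were taken by gene name, with earlier results of these data known, and all 8 were found among 32531 gene symbols. Polysomes were pulled down from the ventral striatum of adult mice of the Stard5-EGFP/Rpl10a line JX5852, in which ribosomal protein L10a bears an EGFP tag in cells where Stard5 regulatory sequence is active. The labels do not name which cells of this region those are. Both libraries are anti-EGFP pull-downs from untreated control mice, replicates 1 and 2 of the only group, and every mouse carried the transgene. No label states an exact age, or that replicates are different animals or pools, and their spread may be technical. No input RNA, other line or other condition was analysed here, so enrichment in the tagged cells could not be computed.

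The sodium pump exports sodium and imports potassium with energy from ATP. Its alpha subunit does the transport, and its beta subunit is needed for folding and delivery to the membrane. Calcium is cleared from the cytosol by pumps of the endoplasmic reticulum (SERCA), by pumps of the plasma membrane (PMCA) and by sodium-calcium exchange. Chloride is brought into cells by the sodium-potassium-chloride cotransporter NKCC1, encoded by Slc12a2, and carried out of mature neurons by the potassium-chloride cotransporter KCC2, encoded by Slc12a5. Their balance sets the direction of chloride flow through GABA-A receptors, which matters in the striatum because its output neurons release and receive GABA.

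Replicate 1 held 25830282 reads in genes and replicate 2 held 29574781, and 12374 genes reached 1 CPM (reads per 1000000 reads in genes) in both. Markers of striatal spiny projection neurons were abundant, with all 12 listed genes detected and summed levels of 12022 and 9679 CPM in replicates 1 and 2, led by Arpp21, Gnal and Pde10a. All 12 oligodendrocyte markers were detected, with sums of 1042 and 1630.2 CPM, and of 12 astrocyte markers 11, with sums of 941 and 3097 CPM. Precursor cell, microglia and vessel markers summed to between 36.9 and 190.0 CPM. Interneuron and glutamatergic markers summed to 169 and 246 CPM and to 17.8 and 40.5 CPM. Of 8 ependymal and choroid plexus markers, Ttr, Folr1, Ccdc153 and Otx2 had 0 reads in both libraries, and most of the sums of 49.8 and 43.9 CPM came from Clic6 and Kl. Stard5 itself stood at 166 and 54.9 CPM.

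All 8 pump and cotransporter genes were detected in both libraries, and 7 of them reached 100 CPM in both. Together they made up 0.519% and 0.551% of reads in genes. Atp1b1 was the most abundant, rank 36 of all genes by mean CPM, and Slc12a2 the least, rank 4544. Between them lay Atp2b1 at rank 62, Atp2a2 at 125, Atp2b2 at 139, Slc8a1 at 307, Slc12a5 at 492 and Atp1b2 at 1571.

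**Figure D1:**
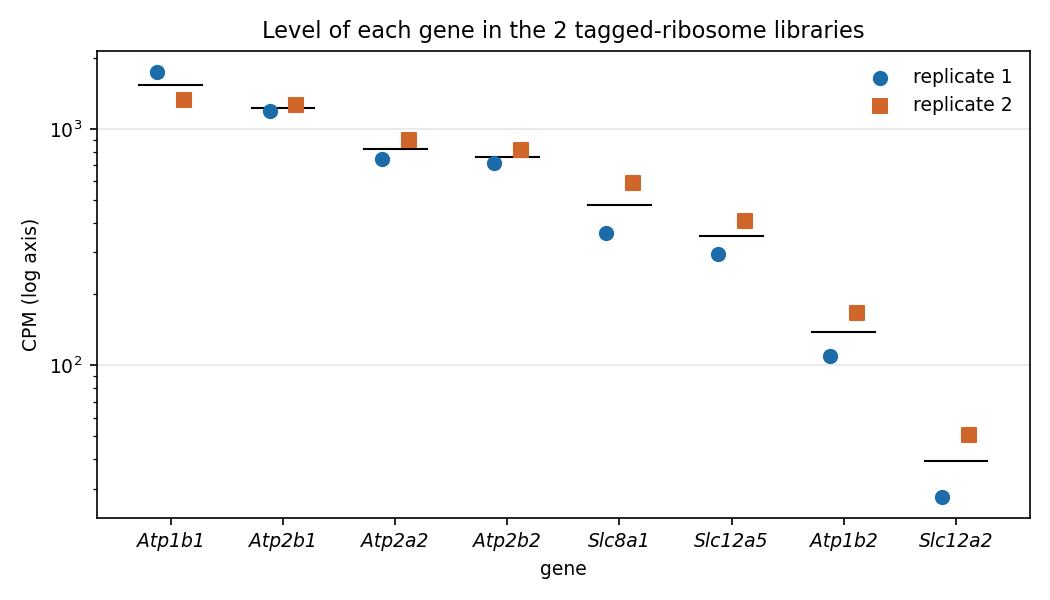
Level of each gene in CPM on a log axis. Circles are replicate 1, squares replicate 2, and bars the mean of the 2 libraries. Atp1b1 is the only gene higher in replicate 1, at 1741 against 1331 CPM, and Slc12a2 lies lowest in both libraries, at 27.8 and 50.9 CPM.

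Levels of different genes were compared per kilobase of exon, since longer transcripts give more reads. On this scale the order, from high to low, was Atp1b1, Atp2a2, Atp2b1, Atp2b2, Slc12a5, Atp1b2, Slc8a1 and Slc12a2, and it was the same in each library alone. Each of the 7 steps between neighbours had the same sign in both libraries and a mean larger than its SD. The genes were sorted by their mean over these same 2 libraries, so the direction of the mean steps was largely set by the sorting. The widest steps were at the ends, 1.87 ± 0.47 log2 units from Atp1b1 to Atp2a2 and 2.83 ± 0.12 from Slc8a1 to Slc12a2 (SD, n = 2). The closest neighbours were Atp2b2 and Slc12a5, 0.37 ± 0.19 log2 units apart. The order in the middle depended on the length used: with the longest annotated transcript of each gene, Atp2b1 stood at 172 CPM per kilobase and Atp2a2 at 145, where all exons gave 80.4 and 135. Among detected genes with a length, 7 of the 8 lay at or above percentile 86.6 by level per kilobase, and Slc12a2 at percentile 39.4.

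Atp1b1 encodes the beta-1 subunit of the sodium pump (ENSMUSG00000026576.12, chromosome 1, 164437109 to 164458355, minus strand of GRCm38). It had 44975 reads in replicate 1 and 39362 in replicate 2, or 1741 CPM (exact Poisson 95% interval 1725 to 1757) and 1331 CPM (1318 to 1344). Its mean was 1536 ± 290.1 CPM (SD, n = 2), and 499 ± 94.2 CPM per kilobase, percentile 99.9. Of its exon bases, 18.7% overlap Nme7, a gene on the other strand that stood at 13.7 and 11.4 CPM. Atp1b1 thus had more than 1000 CPM in both libraries beside a neighbour under 100 CPM.

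The 250 bases before the annotated start of Atp1b1 are shown because it was the most abundant of the 8 genes. They come from RefSeq's GRCm38.p6 (chr1:164458356-164458605, minus strand), read 5′ to 3′, with capitals marking the GC box GGGCGG or its reverse complement. The window holds 2 such matches, and 32.7% of 32851 annotated windows of this length hold at least 1.
Atp1b1: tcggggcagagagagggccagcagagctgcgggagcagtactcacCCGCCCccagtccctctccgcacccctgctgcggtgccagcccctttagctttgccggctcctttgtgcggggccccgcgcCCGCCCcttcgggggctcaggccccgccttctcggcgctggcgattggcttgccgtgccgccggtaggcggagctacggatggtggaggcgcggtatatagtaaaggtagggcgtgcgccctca
Its base composition is 70.4% G and C, against a median of 52.4% over all windows.

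Atp1b2, which encodes the beta-2 subunit, also known as an adhesion molecule on glia, was far less abundant (ENSMUSG00000041329.13, chromosome 11, 69599736 to 69605942, minus strand). It had 2836 and 4908 reads, or 109.8 CPM (106 to 114) and 166 CPM (161 to 171). The mean was 138 ± 39.7 CPM and 33.8 ± 9.72 CPM per kilobase (SD, n = 2). Replicate 2 was the higher library for Atp1b2 and the lower one for Atp1b1, and for neither gene did the intervals overlap. Atp1b3, the beta-3 subunit gene, stood at 24.9 and 21.8 CPM, and Atp1b4 had 0 reads. Per kilobase, Atp1b1 made up 93.8% and 89.7% of the 4 beta genes in replicates 1 and 2.

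**Figure D2:**
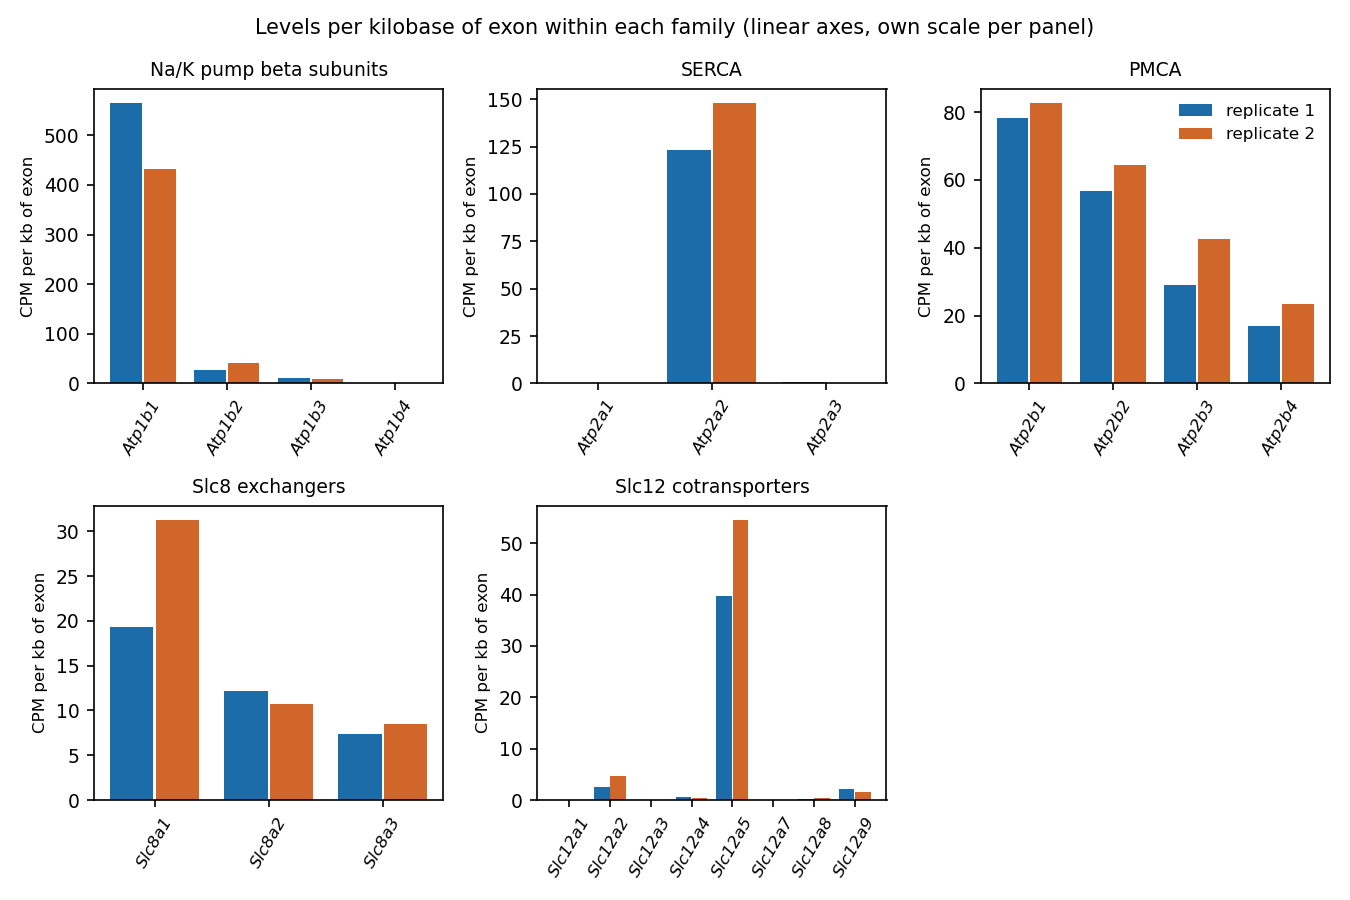
Levels per kilobase of exon for the genes reported here from 5 families, replicate 1 and replicate 2 as neighbouring bars on linear axes that start at 0, each panel with its own scale. Atp1b1, Atp2a2 and Slc12a5 are the highest of their panels by a wide margin, while the 4 PMCA genes lie closer together.

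Atp2a2 encodes SERCA2, the calcium pump that fills the endoplasmic reticulum (ENSMUSG00000029467.15, chromosome 5, 122453513 to 122502225, minus strand). It had 19269 and 26622 reads, or 746 CPM (735 to 757) and 900.2 CPM (889 to 911), with a mean of 823 ± 109 CPM (SD, n = 2). Replicate 2 was the higher library. The other SERCA genes were nearly absent: Atp2a1, the form of fast skeletal muscle, had 0 reads, and Atp2a3 stood at 2.67 and 1.12 CPM. Atp2a2 therefore held 99.6% and 99.9% of the SERCA reads. The small SERCA regulators Sln and Mrln had 0 reads, and phospholamban, Pln, which inhibits SERCA2, had 13 and 64 reads, with 64.7% of its exon bases shared with other genes. At a limit of 3 reads, a count of 0 allows levels of up to 0.116 and 0.101 CPM in replicates 1 and 2.

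Atp2b1 and Atp2b2 encode PMCA1 and PMCA2, which export calcium across the plasma membrane. Atp2b1 (ENSMUSG00000019943.10, chromosome 10, 98914406 to 99026143, plus strand) had 30727 and 37215 reads, or 1189.6 CPM (1176 to 1203) and 1258 CPM (1246 to 1271). Its mean of 1224 ± 48.6 CPM had the smallest spread, relative to its level, of the 8 genes (SD, n = 2). Atp2b2 (ENSMUSG00000030302.16, chromosome 6, 113743831 to 114042613, minus strand) had 18469 and 24031 reads, or 715 CPM (705 to 725) and 813 CPM (802 to 823), a mean of 764 ± 69.0 CPM. Both genes were a little higher in replicate 2, by 1.08-fold and 1.16-fold after TMM scaling of the library sizes (trimmed mean of M-values), and both directions turned when the trend of the ratio on exon length was removed.

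All 4 PMCA genes were detected. Per kilobase, Atp2b1 made up 43.2% and 38.8% of their sum in replicates 1 and 2, Atp2b2 31.4% and 30.2%, Atp2b3 16.0% and 20.0%, and Atp2b4 9.36% and 11.0%. In CPM, Atp2b3 stood at 139.7 and 205 and Atp2b4 at 207 and 287. The order per kilobase was the same in both libraries, while in CPM Atp2b4 stood above Atp2b3 in both. PMCA reads were spread over several genes where SERCA reads were not. Neuroplastin and basigin, encoded by Nptn and Bsg, are partner proteins of these pumps. Nptn stood at 319 and 233 CPM and Bsg at 140.2 and 92.3 CPM. The Golgi calcium pump gene Atp2c1 was at 91.9 and 100.1 CPM, Tmem165 at 10.3 and 10.6 CPM, and Atp2c2 at 0.581 and 0.101 CPM.

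Slc8a1 encodes NCX1, which uses the sodium gradient to export calcium (ENSMUSG00000054640.15, chromosome 17, 81373105 to 81738377, minus strand). It had 9353 reads in replicate 1 and 17414 in replicate 2, or 362 CPM (355 to 369.5) and 589 CPM (580.1 to 598). The mean was 475 ± 160.3 CPM, and replicate 2 was 1.66-fold the higher after TMM scaling (n = 2). The paralogs Slc8a2 and Slc8a3 were lower in reads, at 64.2 and 56.3 CPM and at 39.6 and 45.4 CPM. Slc8a1 has 18807 bases of annotated exon, more than either paralog, and per kilobase its share of the 3 genes was 49.5% in replicate 1 and 62.0% in replicate 2. Among potassium-dependent exchangers, Slc24a2 led at 599 and 672 CPM, above Slc24a4 at 63.1 and 70.5 CPM and Slc24a3 at 41.4 and 46.7 CPM. Per kilobase, Slc24a2 stood above Slc8a1, at 49.0 and 55.0 against 19.3 and 31.3 CPM per kilobase. The mitochondrial exchanger gene Slc8b1 was at 0.155 and 0.406 CPM.

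Slc12a5 encodes KCC2, the neuronal chloride exporter (ENSMUSG00000017740.17, chromosome 2, 164960802 to 164999731, plus strand). It had 7655 and 12029 reads, or 296 CPM (289.8 to 303) and 407 CPM (399 to 414). Its mean was 352 ± 78.0 CPM and 47.2 ± 10.5 CPM per kilobase, percentile 94.1 of detected genes (SD, n = 2). Replicate 2 was the higher library.

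The RefSeq table gives Slc12a5 starts at 2 sites, which are known to give the KCC2a and KCC2b forms with different first exons. The deposited counts add reads over the whole gene, so the forms cannot be told apart, and the sequence before each start is shown to make that split visible. Both lie on the plus strand of GRCm38.p6, at chr2:164960596-164960801 and chr2:164967738-164967982, and are cut where the first annotated exon base begins. Capitals mark the GC box as above.
Slc12a5 upstream start: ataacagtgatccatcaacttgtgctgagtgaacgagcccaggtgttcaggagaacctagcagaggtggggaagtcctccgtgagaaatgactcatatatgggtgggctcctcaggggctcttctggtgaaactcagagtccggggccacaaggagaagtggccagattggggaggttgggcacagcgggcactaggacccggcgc
Slc12a5 downstream start: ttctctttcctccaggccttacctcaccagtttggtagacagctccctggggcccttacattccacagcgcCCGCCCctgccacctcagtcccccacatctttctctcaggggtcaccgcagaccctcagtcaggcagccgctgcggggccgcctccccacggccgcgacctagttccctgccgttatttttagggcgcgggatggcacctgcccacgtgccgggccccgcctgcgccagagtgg
Searched over its full 250 bases, the downstream window holds 1 GC box and 1 E-box CACGTG, a motif in 6.02% of all windows, and the upstream window neither. Both motifs were searched on both strands and do not overlap each other here. The cyclic AMP response element TGACGTCA (1.55% of all windows) and TATAAA (12.4%) were found in neither of these windows, nor in that of Atp1b1.

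Slc12a2 encodes NKCC1, the chloride importer (ENSMUSG00000024597.11, chromosome 18, 57878678 to 57946821, plus strand). It had 718 and 1506 reads, or 27.8 CPM (25.8 to 29.9) and 50.9 CPM (48.4 to 53.6), with a mean of 39.4 ± 16.4 CPM (n = 2). The library intervals did not overlap, and replicate 2 was 1.86-fold the higher after TMM scaling, the widest ratio of the 8 genes. Per kilobase, Slc12a5 stood 15.6-fold above Slc12a2 in replicate 1 and 11.7-fold in replicate 2.

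Other Slc12 genes reported here were low. Slc12a9 stood at 11.2 and 8.15 CPM, Slc12a4, the KCC1 gene, at 2.63 and 1.99 CPM, Slc12a8 at 1.24 and 1.32 CPM, and Slc12a1, the kidney cotransporter gene, at 0 and 0.237 CPM. Per kilobase of exon, Slc12a2 stood above each of these in both libraries. The kinases that switch these cotransporters by phosphorylation were all detected: Wnk1 at 569.7 and 709 CPM, Wnk3 at 242 and 247 CPM, Stk39, which encodes SPAK, at 85.7 and 97.3 CPM, and Wnk4, the lowest, at 1.01 and 1.22 CPM.

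Shares within a pair of related genes do not depend on library size, and 3 pairs were compared between the libraries by 2-sided Fisher exact tests on reads, with Benjamini-Hochberg adjustment over the 3. Slc12a5 had 91.4% (Clopper-Pearson 95% interval 90.8 to 92.0) of the reads of Slc12a5 and Slc12a2 in replicate 1. In replicate 2 its share was 88.9% (88.3 to 89.4), and the mean was 90.1% ± 1.80 (SD, n = 2; Fisher exact test, adjusted p = 1.33e-09). Atp1b1 had 94.1% (93.9 to 94.3) of the reads of Atp1b1 and Atp1b2 and 88.9% (88.6 to 89.2), a mean of 91.5% ± 3.65 (Fisher exact test, adjusted p = 3.19e-175). Atp2b1 had 62.5% (62.0 to 62.9) and 60.8% (60.4 to 61.2) of the reads of Atp2b1 and Atp2b2, a mean of 61.6% ± 1.20 (Fisher exact test, adjusted p = 8.66e-09). In each pair the leading gene was the same in both libraries and its share was lower in replicate 2. These tests compare 2 libraries and take in counting error only, with reads counted as if they were independent molecules. Per kilobase of exon the mean shares were 93.1%, 93.4% and 57.1% for Slc12a5, Atp1b1 and Atp2b1. With the longest transcript as length they were 90.8%, 94.0% and 66.6%, and with the median transcript 97.8%, 94.5% and 84.9%, so the share of Atp2b1 depended on the length used.

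**Figure D3:**
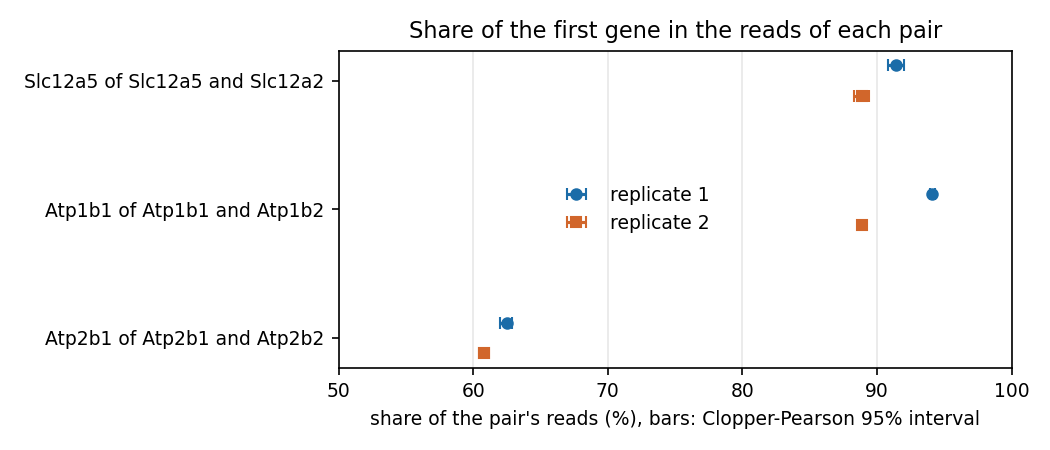
Share of the pair's reads, in percent, held by Slc12a5, Atp1b1 and Atp2b1, with circles for replicate 1, squares for replicate 2 and bars for Clopper-Pearson 95% intervals. The axis runs from 50 to 100%. All 3 shares lie lower in replicate 2, with the widest gap for Atp1b1, 94.1% against 88.9%.

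The library test set each detected gene's reads in replicate 2 against those in replicate 1. It was an exact binomial test, 2-sided, with TMM-scaled library sizes, and a gene passed at a Benjamini-Hochberg adjusted p below 0.05 over all detected genes and a ratio of at least 2-fold. None of the 8 genes passed, where 17.3% of all 12374 detected genes did and 2.85% of the 2175 genes at a mean of 100 CPM or more. At 1.5-fold, Atp1b2, Slc8a1 and Slc12a2 passed, 3 of 8, against 38.2% of all detected genes and 17.9% of those at 100 CPM or more. With the trend of the ratio on exon length removed, the log2 ratios of these genes were 0.69, 0.34 and 0.68. That of Slc8a1 then lay below 1.5-fold. Without a required fold all 8 had an adjusted p below 0.05 in the exact binomial test, as did 78.9% of all detected genes, since deep counts make small ratios pass. The test takes in counting error only and says nothing of a condition.

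The log2 ratio of replicate 2 over replicate 1 was 0.90 for Slc12a2, 0.73 for Slc8a1, 0.62 for Atp1b2, 0.48 for Slc12a5 and 0.30 for Atp2a2, and -0.36 for Atp1b1. For Atp2b2 it was 0.21 and for Atp2b1 0.11, and both turned negative, at -0.05 and -0.21, when the trend of the ratio on exon length was removed. Without that removal, 7 of 8 genes were higher in replicate 2, against 6155 of 12374 detected genes. The median log2 ratio of the 8 was 0.39, where that of all detected genes was 0.00. The median size of the ratio without its sign was 0.42 for the 8 genes, 0.44 for all detected genes and 0.28 for genes at a mean of 100 CPM or more.

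**Figure D4:**
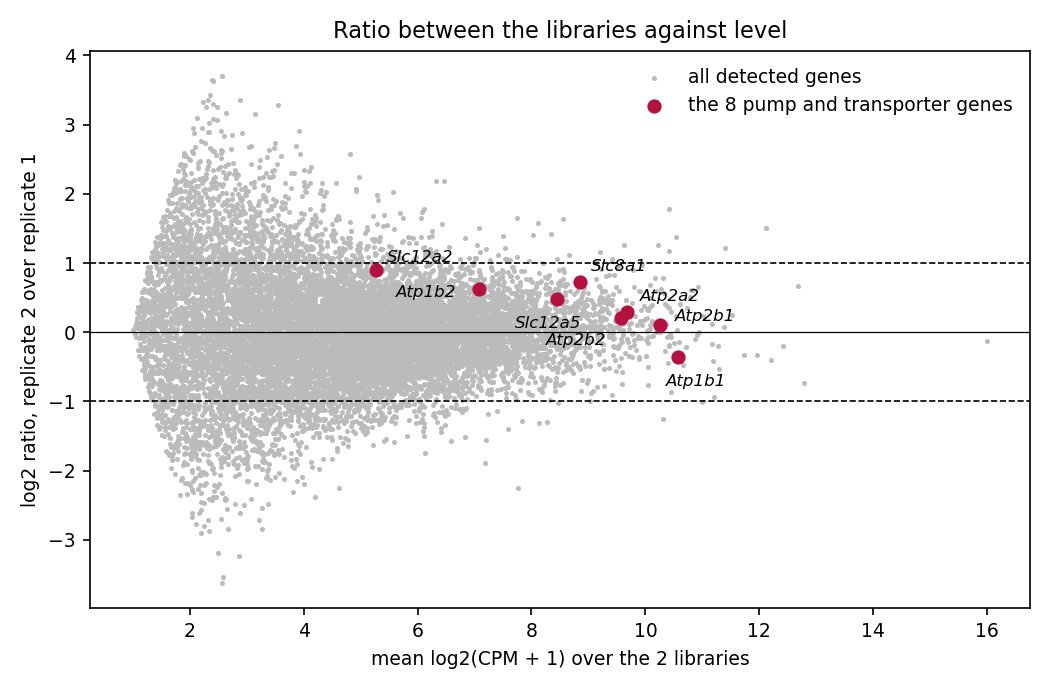
Log2 ratio of replicate 2 over replicate 1 against mean log2(CPM + 1), with all 12374 detected genes in grey and the 8 genes in red. Dashed lines mark a 2-fold ratio. The 8 genes lie between -0.36 and 0.90, all inside the dashed lines, and the grey cloud narrows towards high levels.

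Markers of several cell types differed between the libraries too. Of 11 tested astrocyte markers, 8 passed towards replicate 2 and 0 towards replicate 1, where 9.52% of all detected genes passed towards replicate 2. The list's median log2 ratio was 1.68. They included Slc1a2, at 741 and 2496 CPM. Of 12 oligodendrocyte markers, 5 passed towards replicate 2 and 0 towards replicate 1, at a median of 0.75, and of 5 tested precursor markers 1, with a median of 0.81. Neuronal lists differed as well. All 3 tested glutamatergic markers were higher in replicate 2, at a median of 0.84 with 1 past the test. So were all 6 tested interneuron markers, at a median of 0.52 with 0 past it. Listed interneuron markers below 1 CPM in a library were not tested. Of these, Pvalb went the other way, at 2.25 and 0.507 CPM, and Vip had 0 reads. Spiny neuron markers had a median of -0.29, with 0 past the test and 2 of 12 ratios above 0. Microglia markers had a median of -0.44, with 1 past the test towards replicate 1 and 1 of 8 ratios above 0. The 5 tested vessel markers had a median of -0.23, with 1 past the test towards replicate 1 and 2 ratios above 0. The part of these cell types in the ratios of the 8 genes was not tested. In such RNA, fewer cells of a type and less RNA per cell cannot be told apart. Stard5 itself passed the library test towards replicate 1, at a log2 ratio of -1.57, where 7.76% of all detected genes passed that way. Whether this bears on the ratios of the 8 genes was not tested.

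**Figure D5:**
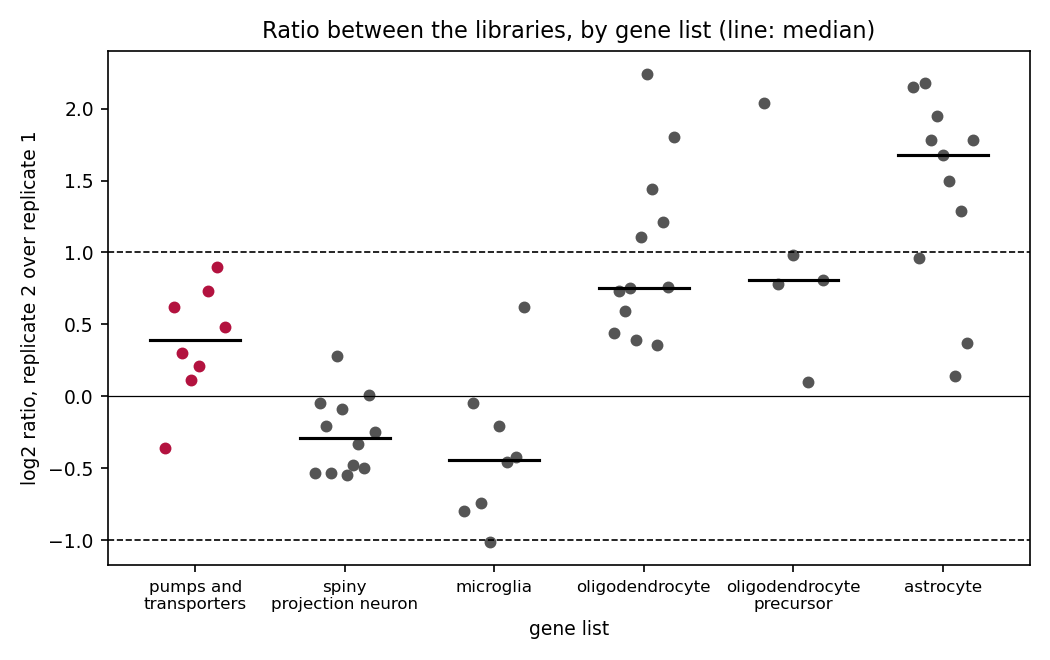
Log2 ratio of replicate 2 over replicate 1 for the 8 genes, in red, and for tested markers of 5 cell types, in grey. Each point is 1 gene, lines are medians and dashed lines a 2-fold ratio. The median is 0.39 for the 8 genes, -0.29 for spiny neuron, -0.44 for microglia, 0.75 for oligodendrocyte, 0.81 for precursor and 1.68 for astrocyte markers.

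Of 62 other genes of ion pumping and exchange reported on here, 39 were detected, and 2 passed the library test towards replicate 2 and 2 towards replicate 1, where 9.52% and 7.76% of all detected genes did. Those higher in replicate 2 were the bicarbonate cotransporter gene Slc4a7 (log2 ratio 1.78) and the endosomal sodium-proton exchanger gene Slc9a9 (2.85). Those higher in replicate 1 were Atp2a3 (-1.22) and Slc9a2 (-1.24). Their median log2 ratio was 0.20, and 28 of 39 had a ratio above 0.

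Among bicarbonate transporters, which move acid equivalents and in some cases chloride, Slc4a4 led in CPM only, at 237 and 402 CPM. Slc4a10 stood at 180.2 and 269 CPM and Slc4a8 at 85.0 and 133 CPM, and Slc4a5 had 0 reads. Per kilobase of exon, Slc4a10 stood above Slc4a4 in both libraries. The sodium-proton exchanger genes Slc9a7, Slc9a8 and Slc9a5 stood at 40.5 and 71.0, 12.7 and 24.3, and 9.83 and 12.4 CPM, and Slc9a4 had 0 reads. The FXYD proteins are small regulators of the sodium pump. Fxyd6 was highest at 21.0 and 22.4 CPM, then Fxyd5 at 2.48 and 1.22 CPM and Fxyd4 at 0.581 and 2.57 CPM, with Fxyd3 at 0 reads. The stomach and colon proton pump genes Atp4a, Atp4b and Atp12a had 0 reads in both libraries.

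The detected genes nearest to each of the 8 in level, by Euclidean distance of log2(CPM + 1) over the 2 libraries, were Rtn1 for Atp1b1, Wdr47 for Atp1b2, Taok1 for Atp2a2, Gsk3b for Atp2b1, Eif3a for Atp2b2, Pcm1 for Slc8a1, Mtif2 for Slc12a2 and Grm5 for Slc12a5. The distances ran from 0.0150 to 0.0736 among 12373 genes. With 2 libraries of 1 group, this likeness is one of level only.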

How the data were processed

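Counts of reads per gene symbol were deposited for 2 libraries of 1 group. Per the submitters' processing notes, the authors aligned and counted with STAR 2.0.0e and HTSeq on build mm10. For annotation, strand setting and read filters nothing is given in the sources used here, so reads of overlapping or antisense genes cannot be told apart. In each file 6 lines name no gene and were left out. Of all counted reads, those outside annotated exons were 22.8% and 31.0% in replicates 1 and 2, those with several alignments 27.9% and 13.6%, and ambiguous ones 1.84% and 2.08%.

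CPM was computed over named genes. Exon lengths and coordinates came from GENCODE M21 (GRCm38) by symbol, with a length for 11465 detected genes (92.7%). For promoters, 5 of the 8 genes matched RefSeq's table. Library ratios used TMM of edgeR 4.0.16 with 0.5 reads added, and exact binomial tests of scipy 1.17.1 over all genes at 1 CPM or more in both libraries. The test was checked on simulated counts that held counting error only, so that check does not cover other variation between libraries. Alternatives were DESeq2 1.42.0 size factors, library totals, other filters, folds and lengths, and a lowess trend on exon length (statsmodels 0.14.6). Members and lists were chosen with earlier results of these data known. Named genes are the 8, the up to 3 highest and the lowest others of each class (a few genes of these classes are not reported here, and genes past the library test were added after their values were seen), and the gene nearest in level to each of the 8. Intervals and floors cover counting error only.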

Additional observations from a re-analysis of the deposited data

How the results depend on the processing

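The 8 genes stayed detected at thresholds of 0.5 and 5 CPM. The count of them past the library test was 0 with DESeq2 size factors, library totals, either low filter or the exon length trend removed, 3 at 1.5-fold and 8 with no fold required. Over all genes 2138 of 12374 passed (17.3%), 4732 at 1.5-fold (38.2%) and 9761 with no fold required (78.9%). With no low filter 5781 of 18929 passed (30.5%), and at a mean of 5 CPM or more 1490 of 10343 (14.4%). With the exon length trend removed 1701 of 11465 passed (14.8%). Removing the trend on exon length turned the log2 ratio of Atp2b1 to -0.21 and of Atp2b2 to -0.05, and no other ratio of the 8 changed sign under an alternative. The same removal took the log2 ratio of Slc8a1 from 0.73 to 0.34. The cause was not tested. Per kilobase of exon, the share of Slc12a5 in its pair moved from 90.1% to 93.1% and that of Atp2b1 from 61.6% to 57.1%, or to 66.6% with the longest transcript. With the median transcript these shares were 97.8% and 84.9%. Both transcript lengths were added for the shares after the data were seen. Leaving out a replicate gave 88.9% to 91.4% for Slc12a5, 88.9% to 94.1% for Atp1b1 and 60.8% to 62.5% for Atp2b1. In the order per kilobase, 6 of 8 genes kept their place with the longest transcript and 2 with the median transcript, where short annotated fragments set the length (623 bases for Atp1b1). Without Rn45s in the total, the mean CPM of all 8 genes was higher. That of Atp2b1 went from 1224 to 1309.6, that of Atp1b1 from 1536 to 1644 and that of Slc12a5 from 352 to 376. The library test gives no value with a replicate left out. No paired analysis was possible because the series holds 1 group.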
